A study of Mus musculus with 6 samples.

Results

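The NF-κB family comprises DNA-binding subunits and the inhibitors and feedback regulators that hold them in check, and 10 genes of this kind were examined among the 32739 genes of the deposited files. They were taken by symbol. The 5 subunits were Nfkb1, Nfkb2, Rel, Rela and Relb, and the 5 inhibitors and regulators were Nfkbia, Nfkbib, Nfkbie, Tnfaip3 and Bcl3. All 10 were found, and 9 passed the filter on low counts; Bcl3 did not.

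The cells were HL-1, a single mouse line of atrial cardiomyocytes whose founder tumour arose from a viral large T antigen driven by the atrial natriuretic factor promoter. Both groups were grown in Claycomb medium and, by the series design, exposed to hypoxia (6 h) followed by reoxygenation (1 h). The sample descriptions carry a longer reoxygenation label, which was taken here as the total time. The hypoxic stress itself is shared and is not what the comparison measures. In 3 libraries the medium held vehicle, and in the other 3 it held 5 µM BRL37344 (BRL), described by the submitters as a β3-adrenergic agonist; the sources used here do not give the time of its addition. Nothing says that the libraries of a group were separate cultures, so p-values describe the spread between these libraries, which may be technical.

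NF-κB works as dimers of Rel-family proteins. In resting cells IκB proteins mask the dimers in the cytoplasm, and after a signal from a cytokine or Toll-like receptor the IκB kinase marks IκB for degradation and the dimers enter the nucleus. Several of the genes they switch on encode their own inhibitors, which closes a feedback loop, and in heart muscle the pathway is known for its part in the inflammatory response to ischaemia and reperfusion. Activity of the pathway is set largely by protein degradation and localisation, which transcript levels do not report.

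Cells were first checked against their label. All 12 cardiomyocyte markers were tested. Their summed level lay between 10723 and 11669 CPM (counts scaled to the effective library size) in vehicle. With BRL it lay between 6777 and 8274 CPM, so the groups did not overlap. By edgeR 2 of the 12, Myh6 and Mybpc3, fell and none rose, beside 1.79% and 1.01% of all genes tested. Without BRL replicate 1, 6 of the 12 fell and 3 rose, beside 10.9% and 10.3% of all genes. The part of this in the results on the members was not tested. Of markers of other cells, 9 leukocyte genes summed to at most 5.24 CPM in any library with Ptprc, Lyz2, Csf1r and Tyrobp at 0 counts throughout, 8 fibroblast genes to at most 5.66 CPM with Dcn, Lum, Thy1 and Tcf21 at 0, and 8 endothelial genes to at most 6.49 CPM with Emcn and Cldn5 at 0. Among these the most abundant were Cd68, Col1a1 and Vwf. The 8 smooth muscle genes summed to 3582 to 4000 CPM with vehicle and 1613 to 3155 CPM with BRL, 68.0% of it Acta2. Total counts ran from 4440168 to 5060049 in vehicle and from 6812810 to 8332472 in BRL. BRL replicate 1 stood apart, with 5.03% of its counts from mitochondrially encoded genes against 16.5% to 21.9% in the other 5 libraries, and results that change without it are given with and without it.

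Promoter sequence was looked at first, because feedback in this family runs through κB sites, the short motifs that the dimers bind. RefSeq promoter windows (250 bases before to 50 after a start, build GRCm38.p6) were at hand for 8 of the 10 members, all but Nfkb1 and Relb, as 11 windows. The narrow κB pattern (GGG, any 2 bases, then TTTCC), read on both strands, occurred in windows of 4 of these 8 members, Nfkb2, Nfkbia, Rel and Tnfaip3. By windows this was 6 of 11, and 1.63% of all 32851 windows held it. It is a subset of the wider pattern of GGG, any 5 bases, then CC, which was in 10 of the 11 windows, of 7 of the 8 members, and in 50.8% of all windows. The full cyclic AMP response element TGACGTCA was in none of the 11 windows and in 1.79% of all. A match describes letters and does not show binding. The narrow matches are shown in capitals with 10 flanking bases on each side, written in the direction of transcription. That of Nfkbia lies in chr12:55492598-55492897 (minus strand) and begins 29 bases before the start; those of Nfkb2 lie in chr19:46304487-46304786 and chr19:46305445-46305744 (plus strand), 11 bases before the first start and 11 bases into the transcript of the second. The second Nfkb2 site is the same one that falls 225 bases before the third start. Those of Rel, in chr11:23770920-23771219, and Tnfaip3, in chr10:19015361-19015660 (both minus strand), begin 91 and 12 bases before the start.
Nfkbia: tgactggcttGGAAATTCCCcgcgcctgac
Nfkb2, first start: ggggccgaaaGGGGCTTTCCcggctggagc
Nfkb2, second start: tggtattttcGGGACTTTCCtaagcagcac
Rel: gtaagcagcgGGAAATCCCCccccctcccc
Tnfaip3: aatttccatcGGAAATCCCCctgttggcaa

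The 2 IκB genes of highest level, Nfkbia and Nfkbib, differ in this respect. They are shown here as the 250 bases before the start, because Nfkbib had the largest fold difference of the tested members and Nfkbia, the classical feedback inhibitor, a smaller one. Nfkbia is chr12:55492648-55492897 and Nfkbib chr7:28766645-28766894, both on the minus strand, with the narrow κB match in capitals. The Nfkbib window held neither κB pattern on either strand, where 50.8% of all windows held the wider one. Neither gene passed edgeR's quasi-likelihood test with all 6 libraries, and a link between motif and fold difference was not tested.
Nfkbia: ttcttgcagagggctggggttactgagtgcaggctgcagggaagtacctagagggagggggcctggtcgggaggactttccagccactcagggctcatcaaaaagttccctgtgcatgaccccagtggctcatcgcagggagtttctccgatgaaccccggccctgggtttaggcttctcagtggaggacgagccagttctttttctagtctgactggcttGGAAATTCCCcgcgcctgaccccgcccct
Nfkbib: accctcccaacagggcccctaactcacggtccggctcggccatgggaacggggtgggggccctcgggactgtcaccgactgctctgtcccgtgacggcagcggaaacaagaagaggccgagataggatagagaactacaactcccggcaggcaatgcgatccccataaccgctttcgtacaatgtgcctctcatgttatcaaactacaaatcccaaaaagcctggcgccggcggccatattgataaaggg

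The comparison asked how transcripts of the family stood with the agonist after hypoxia and reoxygenation. No member passed edgeR's quasi-likelihood test at an adjusted p of 0.05 in either direction, where 1.01% of the 12047 tested genes were called higher and 1.79% lower. Nfkb1, Nfkb2 and Nfkbib had every BRL library above every vehicle library, with fold differences of 1.28, 1.33 and 1.47. Rel had every BRL library below every vehicle library, and the groups overlapped for Rela, Relb, Nfkbia, Nfkbie and Tnfaip3. Such separation was common in the whole table, upward in 16.0% of genes and downward in 15.5%. The same 3 members, of 9, had an unadjusted p under 0.05 in the higher direction against 11.6% of all genes, and none did in the lower direction against 10.8%. The median log2 fold change was 0.20 over the 9 tested members and 0.01 over all genes tested; without BRL replicate 1 the members' median was 0.06. In these bulk libraries, fewer cells of a kind and less RNA per cell cannot be told apart.

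**Figure D1:**
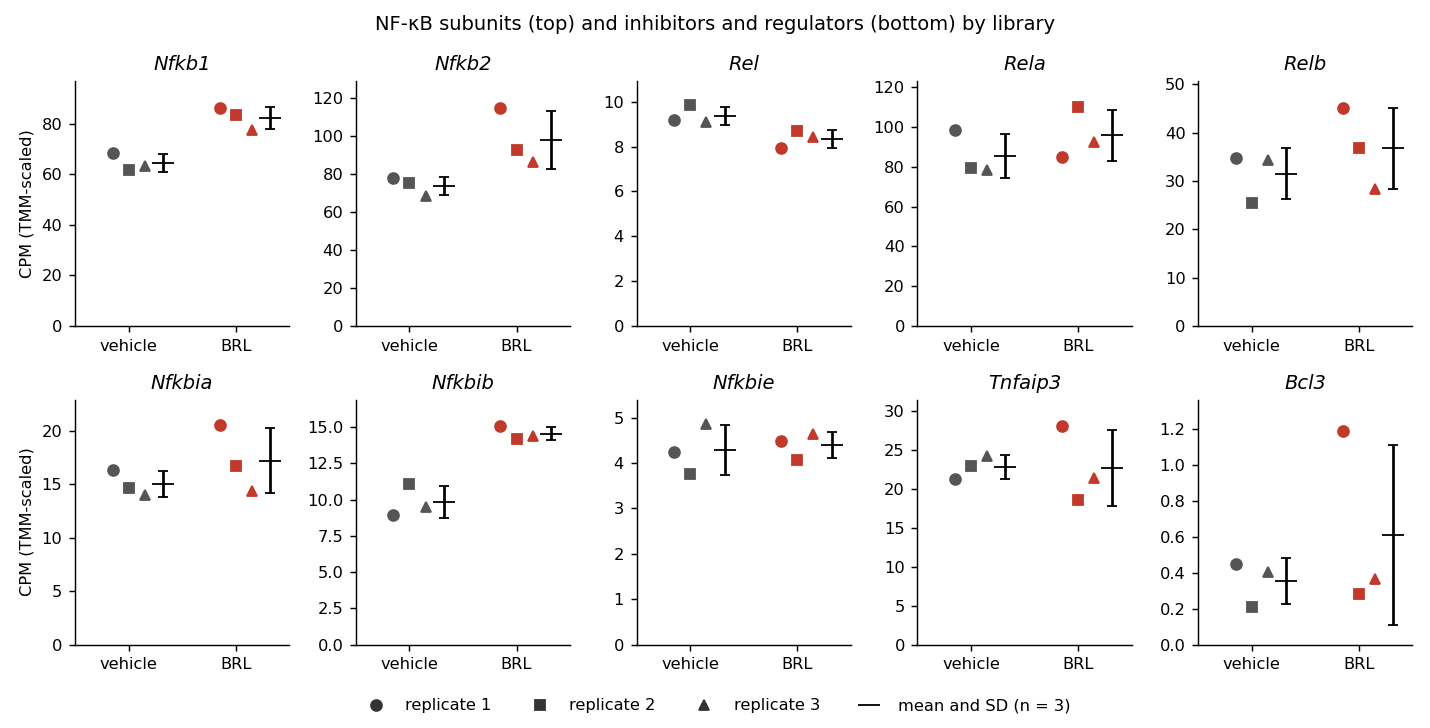
Level of each member in CPM (TMM-scaled, vertical axis from 0, a scale of its own per gene) in the 3 vehicle and 3 BRL libraries; symbols mark the replicate and black bars the mean and SD (n = 3). Nfkb1, Nfkb2 and Nfkbib have all BRL points above all vehicle points, Rel has them below, and BRL replicate 1 is the highest point for Nfkb1, Nfkb2, Relb, Nfkbia, Nfkbib, Tnfaip3 and Bcl3.

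Among the subunits, Nfkb1 encodes p105, which is processed to p50, the partner of RelA in the classical dimer. It measured 68.5, 61.7 and 63.3 CPM in vehicle replicates 1, 2 and 3 and 86.1, 83.6 and 77.4 CPM with BRL replicates 1, 2 and 3. Each BRL library lay above the highest vehicle library. The means were 64.5 ± 3.52 and 82.4 ± 4.49 CPM (SD, n = 3 in each group), for which edgeR gave a log2 fold change of 0.35 ± 0.10 (SE; adjusted p = 0.0899) with a 95% interval of 0.13 to 0.57.

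Nfkb2 encodes p100, an IκB-like precursor processed to p52 in the non-canonical pathway. It measured 77.6, 75.1 and 68.1 CPM with vehicle and 114.7, 92.3 and 85.9 CPM with BRL. The groups did not overlap, and BRL replicate 1 was well above the other BRL libraries. The log2 fold change was 0.41 ± 0.13 (edgeR adjusted p = 0.121) and fell to 0.28 without BRL replicate 1. Exons of Nfkb2 share 6.52% of their bases with Psd and 11.6% with AC114539.1, not analysed here, both on the opposite strand, and the sources used here do not give the strand setting of the counting. Psd measured 9.52 ± 0.58 CPM with vehicle and 8.43 ± 1.60 CPM with BRL, with overlapping groups, and the part of overlapping reads in the Nfkb2 values was not tested.

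Rela encodes p65, the subunit that carries the main transactivation domain. It measured 98.4, 79.5 and 78.6 CPM with vehicle and 84.9, 110.1 and 92.5 CPM with BRL. The 2 groups were interleaved, with vehicle replicate 1 above 2 of the BRL libraries. The log2 fold change was 0.16 ± 0.14 (edgeR adjusted p = 0.512), and its 95% interval ran from −0.14 to 0.47, so a fold difference between 0.905 and 1.39 was not told apart from none.

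Relb encodes the subunit that pairs with p52 downstream of lymphotoxin-type receptors. It measured 34.7, 25.5 and 34.4 CPM with vehicle and 45.0, 36.8 and 28.4 CPM with BRL. BRL replicate 1 was the highest and vehicle replicate 2 the lowest library, with the other 4 in between. Its log2 fold change was 0.22 ± 0.19 (edgeR adjusted p = 0.537), and 0.05 without BRL replicate 1.

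Rel encodes c-Rel, a subunit best known from lymphocytes. It measured 9.17, 9.83 and 9.10 CPM with vehicle and 7.93, 8.71 and 8.41 CPM with BRL, from 41 to 69 counts per library. The BRL libraries were all lower than the lowest vehicle library. The log2 fold change was −0.17 ± 0.17 (edgeR adjusted p = 0.600; 95% interval −0.55 to 0.22), and with counts thinned to the smallest library it was 0.01.

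Among the inhibitors, Nfkbib encodes IκBβ, which holds dimers for longer than IκBα does. It measured 8.95, 11.1 and 9.50 CPM with vehicle and 15.1, 14.2 and 14.4 CPM with BRL. The BRL libraries lay close together and above every vehicle library. The means were 9.85 ± 1.11 and 14.5 ± 0.46 CPM, with a log2 fold change of 0.56 ± 0.16 (edgeR adjusted p = 0.0910) with a 95% interval of 0.21 to 0.91. Exons of Nfkbib share 14.5% of their bases with Ccer2, not analysed here, and 1.94% with Sirt2, both on the opposite strand. Sirt2 measured 54.6 ± 2.53 CPM with vehicle and 58.4 ± 7.45 CPM with BRL with overlapping groups. Psd and Sirt2 did not pass the test.

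Nfkbia encodes IκBα, the inhibitor that is degraded first and resynthesised through its κB sites. It measured 16.3, 14.6 and 13.95 CPM with vehicle and 20.5, 16.7 and 14.4 CPM with BRL. The groups overlapped, since BRL replicate 3 lay under 2 of the vehicle libraries. The log2 fold change was 0.20 ± 0.17 (edgeR adjusted p = 0.531) and 0.06 without BRL replicate 1.

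Nfkbie encodes IκBε, a slow feedback inhibitor. It stayed near the lower end of the tested range, at 4.25, 3.77 and 4.85 CPM with vehicle and 4.49, 4.07 and 4.63 CPM with BRL, from 18 to 38 counts per library. The BRL values fell inside the range of the vehicle values. The log2 fold change was 0.04 ± 0.24 (edgeR adjusted p = 0.952) with a 95% interval of −0.52 to 0.59.

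Tnfaip3 encodes A20, a ubiquitin-editing enzyme that shuts off signalling upstream of the IκB kinase. It measured 21.3, 23.0 and 24.3 CPM with vehicle and 28.1, 18.5 and 21.5 CPM with BRL. The BRL libraries held both the highest and the lowest value of the 6. The log2 fold change was −0.01 ± 0.17 (edgeR adjusted p = 0.983) with a 95% interval of −0.40 to 0.38, and its sign changed with the library scaling.

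Bcl3 encodes an atypical IκB that acts in the nucleus with p50 or p52. It had 2, 1 and 2 counts in vehicle and 9, 2 and 3 counts in BRL, below the filter on low counts. In 5 of the 6 libraries it was at or under 3 counts, a level equal to 0.366 to 0.671 CPM depending on the library, and no difference was detectable at this depth. The expected counts of all 10 members were whole numbers within 0.005, so none carried fractions of reads shared with other loci.

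Leaving out BRL replicate 1 changed the calls. In that fit 3 of the 9 members were higher and none lower at an adjusted p of 0.05 by edgeR, where 10.3% of all genes tested were called higher and 10.9% lower. They were Nfkb1 (log2 fold change 0.32, edgeR adjusted p = 0.0150), Nfkb2 (0.28, adjusted p = 0.0301) and Nfkbib (0.54, adjusted p = 0.0350). Their differences were no larger than with all 6 libraries. When another library was left out in turn, no member passed. With all 6 libraries, edgeR's exact test called Nfkbib in the higher direction (adjusted p = 0.0471), where it called 7.84% of all genes in either direction. DESeq2 and limma-voom called none of the members, and 4.99% and 2.32% of all genes.

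**Figure D2:**
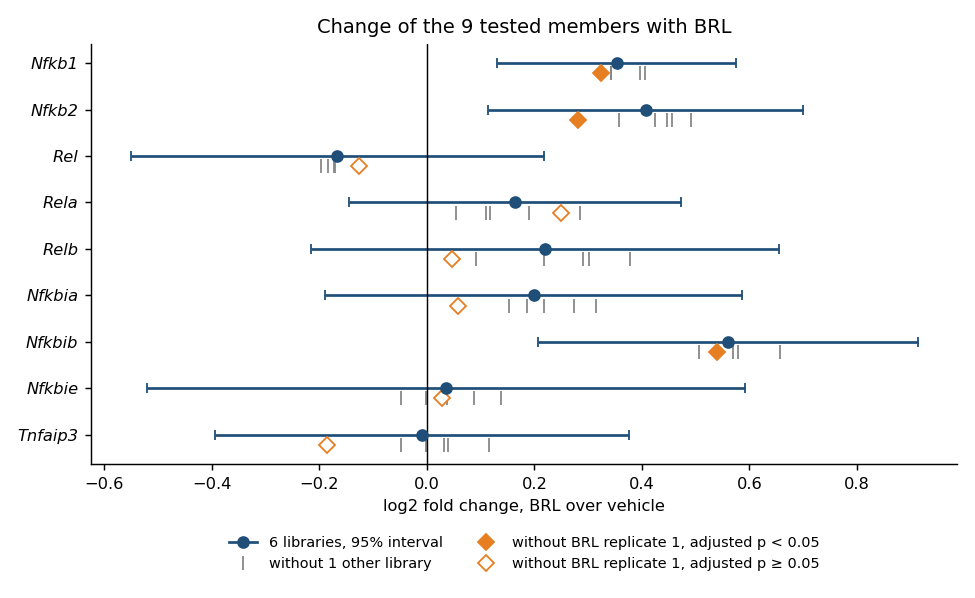
Log2 fold change of BRL over vehicle for the 9 tested members (horizontal axis); blue points are the fit on 6 libraries with its 95% interval, grey ticks the fits without 1 other library, and diamonds the fit without BRL replicate 1, filled where the adjusted p is under 0.05. The intervals of Nfkb1, Nfkb2 and Nfkbib lie above 0, unadjusted for the number of genes, and these 3 are the filled diamonds.

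BRL replicate 1 also split the members among themselves. It was the highest of the 6 libraries for 6 of the 9 tested members, against 30.3% of all genes tested. Relative to the mean of BRL replicates 2 and 3, its CPM was 1.41-fold for Tnfaip3, 1.38-fold for Relb, 1.32-fold for Nfkbia and 1.29-fold for Nfkb2. For Nfkb1, Nfkbib and Nfkbie the ratio was 1.07, 1.05 and 1.03. For Rel and Rela it was 0.926 and 0.838. The low mitochondrial share of the same library is the value that moved with this, and its part was not tested.

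Levels of different genes were compared per length, as TPM, a length-adjusted share of all transcripts, from the deposited RSEM fraction. In vehicle, Rela was highest at 53.7 ± 9.02 TPM, followed by Nfkb2 at 37.3 ± 3.51 and Nfkb1 at 36.0 ± 2.52 TPM. Relb stood at 21.6 ± 4.11 TPM. The IκB genes came next, with Nfkbia at 15.1 ± 1.76 and Nfkbib at 12.6 ± 1.12 TPM, then Tnfaip3 at 9.54 ± 1.56, Rel at 5.21 ± 0.19, Nfkbie at 2.77 ± 0.37 and Bcl3 at 1.01 ± 0.35 TPM. Nfkb2 and Nfkb1 overlapped in range, as did Nfkbia and Nfkbib, and the other neighbours in this order did not. The 4 subunit genes other than Rel thus stood above every inhibitor gene, and Rel stood below Nfkbia, Nfkbib and Tnfaip3.

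In BRL the order of the means was the same except that Nfkbib, at 19.6 ± 4.58 TPM, stood before Nfkbia, at 18.7 ± 7.27 TPM. The ranges of these neighbours overlapped. So did those of Rela and Nfkb2, Nfkb2 and Nfkb1, Relb and Nfkbib, Nfkbia and Tnfaip3, and Nfkbie and Bcl3. Much of the order was therefore not told apart in BRL. TPM was high in BRL replicate 1 for several members: the 5 subunits summed to 251 TPM in it and to 170.3 and 161 TPM in BRL replicates 2 and 3. TPM was therefore used to compare members within a library and not between groups. Rela was the highest member in 5 of the 6 libraries, and in BRL replicate 1 Nfkb2 was.

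Shares within a library do not depend on its scaling. Rela made up 33.3% to 36.7% of subunit TPM in vehicle and 27.0%, 35.4% and 33.9% in BRL replicates 1, 2 and 3. Nfkb2 made up 23.5% to 26.0% in vehicle and 30.3%, 24.6% and 25.8% in BRL. Rel took 3.04%, 3.73% and 3.45% in vehicle and 2.30%, 2.56% and 2.78% in BRL, so its share was smaller in every BRL library. Such a share also depends on the other subunits, and Rel itself did not pass (edgeR adjusted p = 0.600). By CPM, 15.5% of all genes tested had every BRL library below every vehicle library. The summed TPM of Nfkbia, Nfkbib and Nfkbie over that of the 5 subunits was 0.184, 0.214 and 0.199 in vehicle and 0.221, 0.202 and 0.209 in BRL. The ratio overlapped between the groups, with means of 0.199 ± 0.015 and 0.211 ± 0.010.

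**Figure D3:**
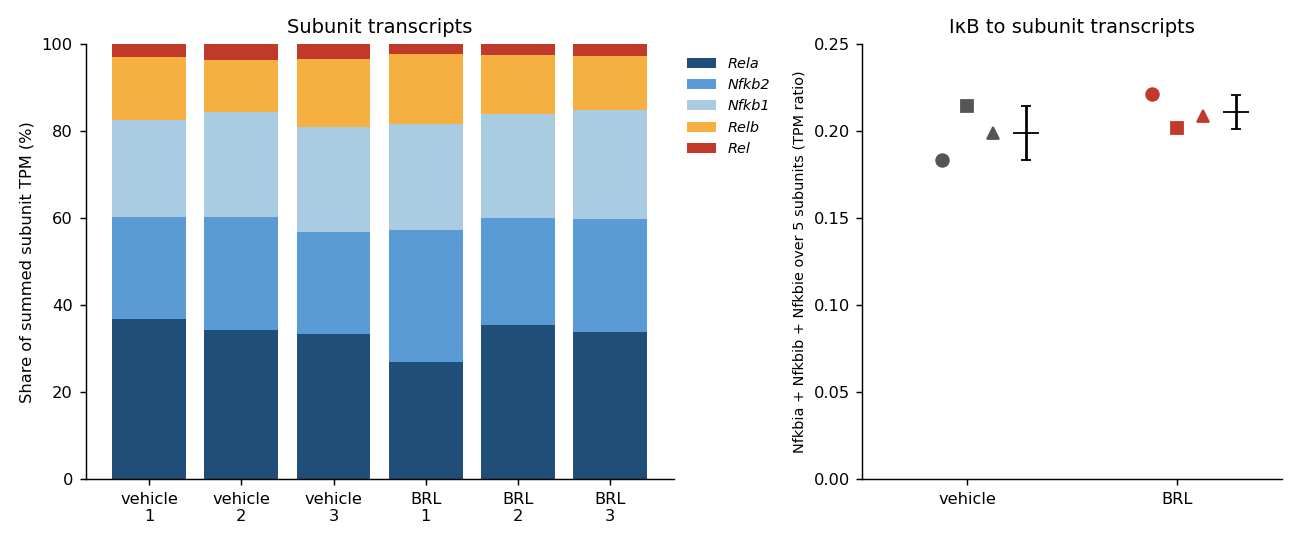
Left, share of the summed TPM of the 5 subunit genes taken by each (percent, stacked) in the 6 libraries; right, summed TPM of Nfkbia, Nfkbib and Nfkbie over that of the 5 subunits (axis from 0), with a symbol per replicate and black bars for the mean and SD (n = 3). BRL replicate 1 has the smallest Rela share, 27.0%, and the ratio lies between 0.184 and 0.221 in all libraries.

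Within the IκB genes, Nfkbia and Nfkbib exchanged places. Nfkbia took 53.4%, 46.9% and 48.1% of IκB TPM in vehicle and 48.5%, 43.95% and 41.2% in BRL. Nfkbib took 37.7%, 45.3% and 41.1% in vehicle and 44.6%, 49.2% and 50.3% in BRL. For each gene the lowest and highest libraries of the groups overlapped, so the exchange held for the means only.

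Genes around the members were grouped by role. Of 156 other pathway genes, 150 were in the files and 99 were tested. By edgeR 2 rose and 1 fell, beside 1.01% and 1.79% of all genes tested. The median log2 fold change was 0.01. Without BRL replicate 1, 16 rose and 9 fell among 98 tested, beside 10.3% and 10.9% of all genes. The ligand genes listed for the pathway were barely detected, and ligands outside this list were not examined. Of 14 ligand genes in the files 2 were tested, Tnfsf13 and Tnfsf10, and neither passed. Tnf, Tnfsf11, Tnfsf14 and Cd40lg had 0 counts in all 6 libraries, which allows up to 3 counts or 0.366 to 0.671 CPM per library, and Il1b had 1 count in a single library. Il33, an alarmin and the ligand gene with the second highest TPM, had 7, 11 and 10 counts in vehicle and 4, 11 and 11 in the deeper BRL libraries. Scaled, it was at 1.57, 2.30 and 2.02 CPM with vehicle and 0.53, 1.55 and 1.34 CPM with BRL. Every BRL library was thus lower, as for 15.5% of all tested genes, and Il33 itself was under the filter and not tested.

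Of 18 receptor genes 6 were tested, and none passed. They were led by Tnfrsf12a, the receptor for the TWEAK cytokine, at 113 TPM in vehicle, and Ltbr, the lymphotoxin β receptor, at 38.9 TPM. Tnfrsf1a, the main receptor for TNF, had the smallest p of this list. It measured 40.7, 34.7 and 39.8 CPM with vehicle and 44.9, 51.8 and 49.98 CPM with BRL, with every BRL library higher and an edgeR adjusted p of 0.127. Without BRL replicate 1, Tnfrsf1a (adjusted p = 0.00730), Tnfrsf12a (0.00747) and Ltbr (0.0274) were higher. Receptors of the interleukin 1 arm were near 0: Il1r1 had at most 1 count in any library, and Il1rap and Il18r1 had 0 in all.

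Adaptors and ubiquitin ligases were widely detected, 22 of 25, and none passed. Irak1 and Rbck1 had the highest TPM, at 64.1 and 60.4 TPM in vehicle. Traf2, an adaptor of TNF receptors with counts that were not whole, had the smallest p of this list, at 25.3 ± 0.97 CPM with vehicle and 35.2 ± 3.88 CPM with BRL (log2 fold change 0.47 ± 0.12, edgeR adjusted p = 0.0756). Traf2 was higher in the fit without BRL replicate 1 (adjusted p = 0.0179), and in that fit Malt1 (0.0133) and Birc2 (0.0372) were lower. All 12 genes of the kinase list, which also holds partners of kinases such as Tab2 and Tab3, were tested and none passed. Chuk, a catalytic subunit of the IκB kinase, was at 73.4 ± 5.02 CPM with vehicle and 71.5 ± 6.39 CPM with BRL. Tab3, which links ubiquitin chains to the TAK1 kinase, had the smallest p, at 128.7 ± 7.32 and 100.1 ± 10.1 CPM (−0.36 ± 0.11, adjusted p = 0.104). Its relative Tab2 had the highest TPM of the kinase list, and without BRL replicate 1 Tab3 (adjusted p = 0.0106), Tab2 (0.0157) and Map3k8 (0.0325) were lower. Map3k8, a kinase held by p105, had the largest log2 fold change of the list with all libraries, −1.18 ± 0.36 (adjusted p = 0.108).

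Of 16 tested genes among other negative regulators none passed. Rnf11 and Tax1bp1, partners of A20 in its ubiquitin-editing complex, had the highest TPM, at 113.7 and 98.7 TPM in vehicle. Without BRL replicate 1, Itch, a ubiquitin ligase, was lower (edgeR adjusted p = 0.0163). Cyld, a deubiquitinase, had the smallest p, at 63.98 ± 2.94 and 53.3 ± 4.67 CPM (log2 fold change −0.26 ± 0.11, edgeR adjusted p = 0.189). Of the other nuclear IκB genes 3 were tested. Nfkbiz, which encodes IκBζ, measured 11.9, 12.3 and 14.8 CPM with vehicle and 7.13, 27.5 and 22.9 CPM with BRL. BRL replicate 1 was the lowest of the 6 libraries and the other 2 BRL libraries the highest, so that Nfkbiz went from an adjusted p of 0.468 to 0.000677 without that library. Nfkbil1 had all BRL libraries above vehicle, with an adjusted p of 0.314.

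Genes that passed lay among the partners of nuclear NF-κB and the targets. Of 11 partner genes 1 rose, beside 1.01% of all genes tested. Sirt1, a deacetylase known to act on RelA, measured 96.0, 101 and 86.1 CPM with vehicle and 184, 149.6 and 154 CPM with BRL (log2 fold change 0.78 ± 0.12, edgeR adjusted p = 0.0129). Every BRL library was above every vehicle library, and the counts were not whole. Without BRL replicate 1, the acetyltransferase gene Kat2b was lower (adjusted p = 0.0137). The most abundant partners were Rps3 and Hdac1, neither of which passed.

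Of 28 tested targets that are not members, 1 rose and 1 fell, beside 1.01% and 1.79% of all genes tested. This count changed with the libraries used. Without BRL replicate 1, 10 of 26 rose and 2 fell, where 10.3% of all genes were called higher and 10.9% lower. Cebpd, a C/EBP transcription factor of the acute phase, measured 6.49, 6.90 and 6.07 CPM with vehicle and 15.9, 19.1 and 13.3 CPM with BRL (log2 fold change 1.30 ± 0.19, edgeR adjusted p = 0.0131). Hif1a, the oxygen-regulated factor whose promoter is a known NF-κB target, measured 299.3, 286 and 322 CPM with vehicle and 220.4, 166 and 199.1 CPM with BRL (−0.63 ± 0.12, adjusted p = 0.0370), with counts that were not whole. Vcam1, an adhesion molecule, had with Hif1a the highest TPM of this list. It measured 210.3, 177 and 224 CPM with vehicle and 152, 328 and 273 CPM with BRL, again with BRL replicate 1 lowest, and its adjusted p was 0.506 with all libraries and 0.00140 without that one. Other targets passed in that fit but not by edgeR's quasi-likelihood test with all libraries. In the higher direction they were Cebpb (edgeR adjusted p of 0.0589 with all libraries and 0.00220 without BRL replicate 1), Myc (0.388 and 0.00249), Cxcl10 (0.374 and 0.00270), Tap1 (0.873 and 0.00999), Lif (0.858 and 0.0200), Sod2 (0.142 and 0.0329), Tnfaip2 (0.129 and 0.0387) and Cx3cl1 (0.140 and 0.0453). Xiap (0.477 and 0.00241) was lower. With all 6 libraries, DESeq2 and edgeR's exact test each called 4 of the 28 targets in either direction. They called 4.99% and 7.84% of all genes. Counts of Cebpb, Cxcl10, Sod2 and Tap1 were not whole. Exons of Sirt1, Cebpd and Hif1a all overlap those of other annotated genes, on the opposite strand and for Hif1a also on the same strand. The calls of Sirt1, Cebpd and Hif1a were each lost when any 1 vehicle library was left out (largest adjusted p over the fits without 1 library of 0.120, 0.107 and 0.221). That of Hif1a was also lost without BRL replicate 2, without BRL replicate 3 and with library totals alone.

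Of the 49 targets in the files that are not members, 21 did not pass the filter on low counts. Among these Ccl2, Ccl7, Cxcl2, Cxcl5, Sele and Il1rn had 0 counts in all 6 libraries. Il6 had 2, 1 and 1 counts in vehicle and 7, 6 and 4 in the deeper BRL libraries. Scaled, it was at 0.45, 0.21 and 0.20 CPM with vehicle and 0.92, 0.84 and 0.49 CPM with BRL. Nos2 and Ptgs2 had at most 4 and 2 counts in any library. Differences in the genes at 0 were not detectable at this depth, and the other genes under the filter were not tested.

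**Figure D4:**
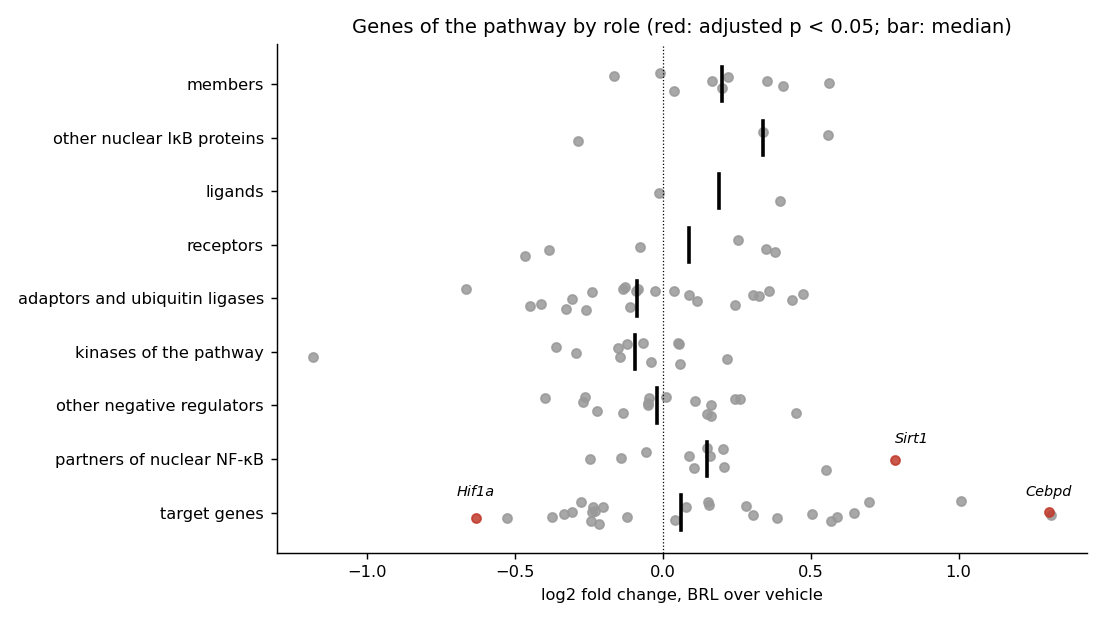
Log2 fold change of BRL over vehicle (horizontal axis) of every tested gene by role in the pathway, with the 9 tested members on top and left out of the target row; black bars are medians, and red points passed edgeR at an adjusted p of 0.05. The red points are Sirt1 and Cebpd on the higher side and Hif1a on the lower side, and none is a member.

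Genes with the most similar pattern over the 6 libraries were sought among 10424 genes with a mean of at least 5 CPM, by Pearson's r of log2(CPM + 1). For Nfkb1 they were Cox4i1, Asna1 and Chtf8 (r of 0.997, 0.997 and 0.996), and 6.26% of candidates had an r above 0.9. For Rela they were Polr2m, Derl1 and Bbc3 (0.990, 0.989 and 0.986), with 1.09% above 0.9. For Nfkbib they were Marcksl1, Dnpep and Bex3 (0.993, 0.992 and 0.988), with 3.53% above 0.9. With 6 libraries in 2 groups of unequal depth such values are a description of shared order only.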

How the data were processed

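The 6 HL-1 libraries were prepared for RNA-seq from total RNA with an Illumina TruSeq kit, per the labels' protocols, and sample titles gave the group and replicate number. For each library the authors deposited expected counts and, beside them, a fraction of transcripts per gene, both from RSEM. The submitters' processing notes name cutadapt, RSEM 1.17, Bowtie, edgeR and build NCBIM37, without settings or strand. The deposited fraction sums to 1 and was rescaled to TPM. A deposited series table of log values was not used.

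Symbols were matched for 88.4% of genes. The rounded expected counts entered edgeR 4.0.16 (R 4.3.3). Genes were kept by filterByExpr at a count minimum of 10, libraries were scaled by TMM, and group was the only term of the quasi-likelihood model. Adjusted p-values are Benjamini-Hochberg over 12047 genes, threshold 0.05. SEs were derived from the F statistic, and 95% intervals from the SE. limma 3.58.1 and DESeq2 1.42.0 served as alternatives. The members and gene lists were chosen with earlier results of these data known; 1 gene of the partner list is not reported here and is left out of the list's counts. Named were all members and, of each list, the genes past the threshold, that of smallest p and the 2 of highest TPM, and of each marker list the gene of highest CPM; ligand, receptor, target, Psd, Sirt2 and other-pathway genes beyond this were chosen after their values were seen. For the nearest patterns, the members taken were those of smallest p, highest TPM and smallest p among the inhibitors, with 3 genes each. Simulated counts for 12047 genes were drawn with the sizes of these 6 libraries and a spread per gene estimated from them. Each gene was drawn on its own, so no shift of BRL replicate 1 across many genes was simulated. Of 50 genes changed 1.5-fold the test found 8, and of 50 changed 2-fold it found 34; 7.38% of 149 calls were unchanged genes.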

Additional observations from a re-analysis of the deposited data

How the results depend on the processing

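For the 9 tested members, 18 alternatives were run, of which a minimum count of 30 left out Nfkbie, with 17. Nfkb1, Nfkb2, Rela, Relb, Nfkbia and Nfkbib were higher in BRL in all 18. Adjusted p ranged from 0.0150 to 0.329 for Nfkb1, 0.0301 to 0.394 for Nfkb2 and 0.0350 to 0.318 for Nfkbib. Members past the threshold in the higher direction numbered 0 with edgeR's quasi-likelihood test, 1 with its exact test and between 0 and 3 when a library was left out, the 3 being without BRL replicate 1; no member was called lower under any alternative. Signs turned for 3 members near 0, given as log2 fold changes. Rel was at 0.0107 with counts thinned to the smallest library. Nfkbie was at −0.0175 with thinned counts, and between −0.0477 (without vehicle replicate 2) and 0.138 (without vehicle replicate 3) when a library was left out. Tnfaip3 was at 0.0411 with library totals only, 0.0021 with mitochondrial genes removed, 0.0161 with no filter on low counts and 0.0450 with thinned counts, and between −0.185 (without BRL replicate 1) and 0.12 (without BRL replicate 2) when a library was left out. The cause of these changes was not tested.

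Genes called higher over the whole table numbered 122, and 77 with library totals only, 282 with no filter on low counts, 246 with DESeq2, 418 with the exact test, and from 17 (without vehicle replicate 3) to 1240 (without BRL replicate 1) when a library was left out. Genes called lower numbered 216, and 330 with no filter, 355 with DESeq2, 527 with the exact test and from 15 to 1315 with a library left out, for the same 2 libraries. Other pathway genes called higher numbered 2, and 4 with no filter, 4 with DESeq2, 5 with the exact test and 0 to 16 with a library left out; those called lower numbered 1, and 0 with library totals only, 3 with the exact test and 0 to 9 with a library left out.

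The titles do not say that replicate numbers pair the libraries. Deviations of same-numbered libraries from their group means correlated at 0.10, −0.02 and −0.02 over genes. Those of differently numbered libraries correlated between −0.11 and 0.13. Such values cannot decide whether same-numbered libraries were handled together. With the replicate number as a block (replicate block), 63 genes were called higher in place of 122, and no member passed. The order of levels could not be recomputed on RefSeq coding length, which the tables at hand do not hold; on CPM per kb of GENCODE M21 coding length, chosen after seeing the data, 8 of 10 members kept their rank and Tnfaip3 and Nfkbib exchanged places. Depth limits Bcl3, Nfkbie and Rel most, with at most 69 counts in any library.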

Other observations

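The level per length and the scaled count did not keep the same relation for Tnfaip3 in every library. Its CPM was 21.3, 23.0 and 24.3 in vehicle and 28.1, 18.5 and 21.5 in BRL, while its TPM per unit of CPM was 0.533, 0.373 and 0.358 in vehicle and 0.678, 0.338 and 0.340 in BRL. For Nfkb1 the same quotient was 0.568, 0.557 and 0.549 in vehicle and 0.710, 0.486 and 0.524 in BRL. The quotient was thus highest in BRL replicate 1 for both genes, and for Tnfaip3 it was also raised in vehicle replicate 1. Tnfaip3 has 2 starts in the RefSeq promoter table, of which the one with the narrow κB match is the upstream one. The division of its reads between transcripts was not analysed here.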
